A study of Mus musculus with 6 samples.

Results

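Mesothelial cells are the flat epithelium that covers the omentum and the rest of the peritoneal lining. They arise from mesoderm, and they keep features of both epithelium and mesenchyme, so they carry keratin filaments beside vimentin. The analysis below follows 10 genes in 6 stromal populations of mouse omentum. Of these, 6 are mesothelial identity genes (*Msln*, *Lrrn4*, *Upk3b*, *Upk1b*, *Wt1* and *Bnc1*) and 4 are keratins of simple epithelium (*Krt7*, *Krt8*, *Krt18* and *Krt19*). The genes were taken as a named list, chosen with earlier results of these data known, and all 10 were found among the 23352 gene symbols of the table.

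Omental cells of wild-type C57BL/6 mice were sorted by flow cytometry on CD45, CD140a (encoded by *Pdgfra*), CD105 (encoded by *Eng*) and aldehyde dehydrogenase (ALDH) activity. P1, P2 and P3 were CD45-CD140a+CD105+ cells of high, intermediate and low ALDH activity. P4 and P5 were the CD45-CD140a+CD105- cells, of intermediate ALDH activity in P4 and low activity in P5. P6 held CD45- cells with low CD140a that had ALDH activity. Each population had 1 RNA-seq library, so there was no replicate check and no test between populations. The sources used here do not give the age or sex of the mice, or how many were pooled. The labels give the genotype as WT and name no treatment.

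Values are FPKM, that is fragments per kilobase of transcript relative to library depth, which allows levels of different genes to be compared per length. Depth was estimated from the steps between low FPKM values at 37.0 M reads in P6 and 53.4 M to 61.8 M reads in the other libraries. Ratios are given with 95% intervals made from these estimated reads, which cover counting error only. The spread between mice or sorts is not known. In sorted bulk samples, fewer cells of a type and less RNA per cell cannot be told apart. Transcripts of the sorted surface proteins followed the gates: *Pdgfra* was at 117 to 154 FPKM in P1 to P5 and 5.36 in P6, *Eng* was at 42.6 to 52.4 FPKM in P1 to P3 and at most 0.728 in P4 to P6, and *Ptprc*, which encodes CD45, was at most 0.755 FPKM. *Aldh1a2*, which encodes a retinaldehyde dehydrogenase, was highest in P1 but did not follow ALDH activity throughout, with 469, 78.8 and 134 FPKM in P1, P2 and P3, and 285, 145 and 209 FPKM in P4, P5 and P6.

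All 10 genes had their highest FPKM in P6, which was so for 37.7% of the 12904 genes that reached 1 FPKM in some population. In P6, 9 of the 10 were at least 2 times as high as in each other population, against 6.45% of these genes, and *Wt1* was the exception. The 10 genes differed in how far they extended into P4 and P5. *Msln*, *Krt7*, *Krt8* and *Krt18* were confined to P6 by a fold rule, that is at least 1 FPKM in P6 and at least 10 times each other population. This rule was met by 4 of the 10 and by 1.03% of all genes. *Lrrn4*, *Upk3b*, *Bnc1* and *Krt19* were shared with P4 and P5, where both had at least 10% of the P6 level and at least 2 times the highest of P1 to P3. That made 4 of the 10, against 3.77% of all genes. *Upk1b* and *Wt1* met neither rule, for opposite reasons described below.

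**Figure D1:**
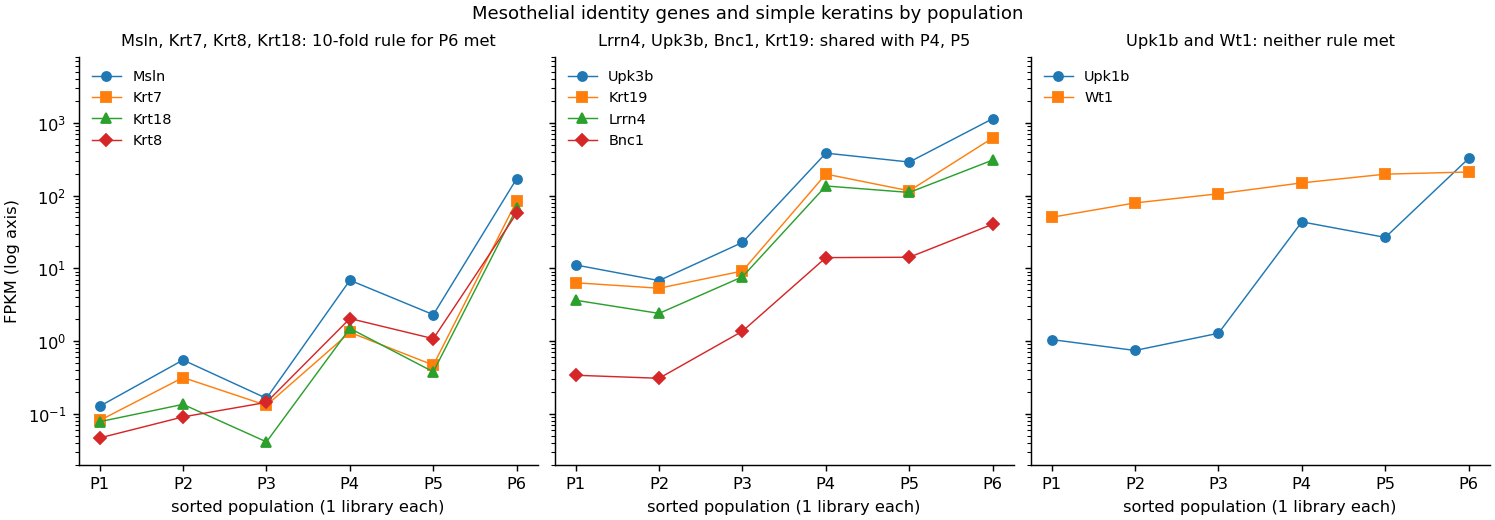
FPKM (log axis) of the 10 genes in the 6 sorted populations, 1 point per library, with lines only to guide the eye. *Msln*, *Krt7*, *Krt8* and *Krt18* stayed at or below 6.86 FPKM outside P6, *Lrrn4*, *Upk3b*, *Bnc1* and *Krt19* had intermediate levels in P4 and P5, *Upk1b* lay between these patterns, and *Wt1* changed gradually from 50.3 FPKM in P1 to 211 FPKM in P6.

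The genes lie on several chromosomes (GRCm38, the assembly also called mm10, GENCODE M21 annotation). *Msln* is at chr17:25748613-25754378, *Lrrn4* at chr2:132868305-132880891, *Upk3b* at chr5:136038496-136046487, *Upk1b* at chr16:38773184-38800328, *Wt1* at chr2:105126529-105173616 and *Bnc1* at chr7:81966672-81992292. The keratins fall into the usual pair of clusters, with *Krt19* at chr11:100140810-100148665 and the others on chromosome 15. There *Krt7* is at chr15:101411043-101430313, *Krt8* at chr15:101996698-102004482 and *Krt18* at chr15:102028180-102032027. *Krt8* and *Krt18* are 23697 bp apart, and *Krt7* is 566384 bp from *Krt8*. Among the 4 simple keratins, the 3 confined to P6 are thus on chromosome 15, and the shared *Krt19* is not. This split did not extend to all keratins. *Krt76*, also of chromosome 15, met the rule for sharing with P4 and P5, and *Krt14* and *Krt15*, described below, were confined to P6. *Bnc1*, *Krt7* and *Krt8* each overlap a noncoding gene on the opposite strand (4833418N17Rik, Gm671 and Gm36026), none of which has a row in the table. The library kit was not stated to keep strand, so reads of such a pair cannot be told apart. *Krt8* also has a processed pseudogene, so its reads are uncertain to that extent.

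RefSeq promoter sequence (GRCm38.p6) was matched for 6 of the 10 genes, namely *Lrrn4*, *Upk3b*, *Bnc1*, *Krt7*, *Krt8* and *Krt18*. Bases 250 to 41 before the RefSeq start are shown for 2 shared and 2 confined genes, since each pair had a like profile. The *Krt7* window lies inside the GENCODE span given above, which begins further upstream than the RefSeq start. The sequences are written 5′ to 3′ on the strand of the gene, from chr2:132880903-132881112 (minus strand), chr5:136038246-136038455 (plus), chr15:101412153-101412362 (plus) and chr15:102027966-102028175 (plus). Capitals mark matches on either strand to GGAATG, the core bound by TEAD factors, or to GTGGGNG, a core like that bound by WT1.
Lrrn4: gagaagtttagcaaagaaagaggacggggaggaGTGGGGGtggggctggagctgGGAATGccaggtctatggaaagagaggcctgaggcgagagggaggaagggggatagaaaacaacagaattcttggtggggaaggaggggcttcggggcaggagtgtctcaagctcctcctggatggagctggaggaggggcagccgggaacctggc
Upk3b: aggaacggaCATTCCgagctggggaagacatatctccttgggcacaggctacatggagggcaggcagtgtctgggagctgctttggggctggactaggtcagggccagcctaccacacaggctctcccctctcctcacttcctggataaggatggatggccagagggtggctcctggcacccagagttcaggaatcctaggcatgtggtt
Krt7: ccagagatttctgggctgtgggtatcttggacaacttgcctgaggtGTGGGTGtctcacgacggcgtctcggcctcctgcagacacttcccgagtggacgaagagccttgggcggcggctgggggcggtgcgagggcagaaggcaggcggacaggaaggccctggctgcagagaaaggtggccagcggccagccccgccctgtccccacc
Krt18: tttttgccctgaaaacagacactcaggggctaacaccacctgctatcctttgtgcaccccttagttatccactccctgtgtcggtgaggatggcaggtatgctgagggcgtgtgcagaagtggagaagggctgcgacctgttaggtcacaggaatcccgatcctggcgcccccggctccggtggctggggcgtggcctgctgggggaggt

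GGAATG was found in 2 of the 6 windows, those of *Lrrn4* and *Upk3b*, and in 11.1% of 32851 promoter windows of the same length. GTGGGNG was found in 2 of the 6, those of *Lrrn4* and *Krt7*, and in 23.6% of all windows. The letters TATAAA were searched as well and occurred in 0 of the 6 windows, against 9.56% of all windows. The motifs searched do not overlap in these windows. The windows differed in base composition, since G and C made up 84.3% of that of *Bnc1*, with 36 CpG, and 57.6% to 67.1% of the other 5, against a median of 51.9% over all promoters. Such matches describe letters and no binding was measured.

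Among the genes confined to P6, *Msln* encodes mesothelin, a GPI-anchored surface glycoprotein of mesothelium. It was at 171 FPKM in P6, 6.86 in P4, 2.31 in P5, 0.550 in P2, 0.163 in P3 and 0.127 in P1. P6 was 24.9 times P4 (95% interval 23.2 to 26.9), and P4 was 2.97 times P5 (2.58 to 3.43). Even so, *Msln* in P5 was 4.20 times its level in P2 (3.16 to 5.58), the highest of P1 to P3, so both CD105- populations had more *Msln* than every CD105+ population. About 13 reads lay behind the value in P1 and 18 in P3, and the ratio of P3 to P1 was 1.29 with an interval of 0.565 to 2.71. P1 and P3 were therefore not distinguishable at this depth, while P2 was 4.33 times P1 (2.28 to 8.31).

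*Krt7*, a type II keratin of simple and ductal epithelium, was at 84.5 FPKM in P6, 1.32 in P4, 0.467 in P5, 0.316 in P2, 0.131 in P3 and 0.0811 in P1. Its 64.1-fold excess in P6 over P4 (57.1 to 72.0) was the largest among the 10 genes. P5 was 1.48 times P2 (1.09 to 1.998), the narrowest step between the CD105- and CD105+ populations among the confined genes, and this ratio was 0.990 when libraries were scaled by *Gapdh*. *Krt7* was 0.374% of its P6 level in P2 and 0.553% in P5.

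*Krt8* and *Krt18* encode the type II and type I partners that pair in the filaments of most simple epithelia. *Krt8* was at 57.2 FPKM in P6, 2.04 in P4, 1.08 in P5, 0.144 in P3, 0.0908 in P2 and 0.0467 in P1. *Krt18* was at 67.0 FPKM in P6, 1.49 in P4, 0.378 in P5, 0.135 in P2, 0.0780 in P1 and 0.0412 in P3. P6 was 28.0 times P4 for *Krt8* (24.4 to 32.4) and 44.8 times P4 for *Krt18* (37.1 to 54.9). In P1 to P3 the pair was near the limit of detection, with about 4 to 15 reads for *Krt8* and 3 to 10 for *Krt18*. No order among P1, P2 and P3 could be read for *Krt18*, since the intervals of all 3 ratios among them included 1.

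The confined genes were 1.56% to 4.01% of their P6 level in P4 and 0.553% to 1.89% in P5. They had higher levels in P4 than in P5, by 1.89 times for *Krt8*, 2.82 for *Krt7*, 2.97 for *Msln* and 3.95 for *Krt18*, with every interval above 1. Relative to P1, P6 was 858 to 1347 times as high, with wide intervals because few reads lay behind the P1 values. Among the 133 genes of the table that met the same rule, ordered by the ratio of P6 to the highest other population, *Krt7* was at place 24, *Krt18* at 32, *Krt8* at 50 and *Msln* at 57.

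Among the genes shared with P4 and P5, *Upk3b* encodes a uroplakin, a family of membrane proteins first known from urothelium. It was at 1140 FPKM in P6, place 22 of all genes of that library, 383 in P4, 289 in P5, 22.7 in P3, 11.1 in P1 and 6.78 in P2. *Lrrn4*, a leucine-rich repeat membrane protein, was at 308 FPKM in P6, 135 in P4, 110 in P5, 7.65 in P3, 3.64 in P1 and 2.40 in P2. *Upk3b* and *Lrrn4* thus had the same order of populations. P6 was 2.97 times P4 for *Upk3b* (2.95 to 3.001) and 2.27 times P4 for *Lrrn4* (2.24 to 2.31).

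*Krt19*, a small type I keratin, was the most abundant keratin in every population. It was at 620 FPKM in P6, 197 in P4, 116 in P5, 9.18 in P3, 6.33 in P1 and 5.33 in P2. The ratio of P6 to P4 was 3.14 (3.08 to 3.20), against 28.0 to 64.1 for *Krt7*, *Krt8* and *Krt18*. *Bnc1* encodes basonuclin 1, a zinc finger protein of several epithelia. It was at 40.4 FPKM in P6, 14.2 in P5, 14.0 in P4, 1.37 in P3, 0.339 in P1 and 0.308 in P2. For *Bnc1*, P4 and P5 differed by no more than counting error, with a ratio of 0.989 (0.945 to 1.03), and P6 was 2.85 times P5 (2.74 to 2.96).

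The shared genes were much alike in their steps. P6 exceeded the highest other population by 2.27 to 3.14 times, and the lower of P4 and P5 exceeded the highest of P1 to P3 by 10.3 to 14.4 times. For all of them P3, the population of low ALDH activity, had the highest level among the CD105+ populations. The ratio of P3 to P2 was 4.44 for *Bnc1* (3.48 to 5.66), 3.35 for *Upk3b* (3.15 to 3.56), 3.19 for *Lrrn4* (2.89 to 3.52) and 1.72 for *Krt19* (1.53 to 1.94). *Msln* and *Krt7* showed the other order, with P3 at 0.297 (0.162 to 0.497) and 0.415 (0.264 to 0.638) times P2. Both CD105- populations were at least 2 times the highest of P1 to P3 for 8 of the 10 genes, against 4.67% of all genes, and the exceptions were *Krt7* and *Wt1*.

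*Upk1b* encodes a uroplakin of the tetraspanin family, and its profile lay between both sets. It was at 324 FPKM in P6, 43.5 in P4, 26.6 in P5, 1.28 in P3, 1.05 in P1 and 0.743 in P2. P6 was 7.46 times P4 (7.21 to 7.71), and P5 held 8.20% of the P6 level, just under the 10% that the shared rule asked for. At 20.8 times the highest of P1 to P3 in P5 (17.4 to 24.9), *Upk1b* had the widest step between the CD105- and CD105+ populations among the 10 genes. With a pseudocount of 1 this step was 12.1, below the 12.9 of *Lrrn4* and the 12.2 of *Upk3b*.

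*Wt1* encodes a zinc finger transcription factor of mesothelium and of the developing kidney and gonad. It was at 211 FPKM in P6, 197 in P5, 149 in P4, 106 in P3, 79.2 in P2 and 50.3 in P1. The next highest value of the 10 genes in P1 to P3 was 22.7 FPKM, that of *Upk3b* in P3. Its levels were higher at each step along the gates, from high to low ALDH activity within the CD105+ populations and again from P4 to P5. P2 was 1.58 times P1 (1.503 to 1.65), P3 was 1.34 times P2 (1.29 to 1.39), and P4 was 0.759 times P5 (0.739 to 0.780). P6 was 1.07 times P5 (1.04 to 1.10), so by level P5 and P6 were close, and this ratio ran from 1.04 to 1.29 over other scalings of the libraries.

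**Figure D2:**
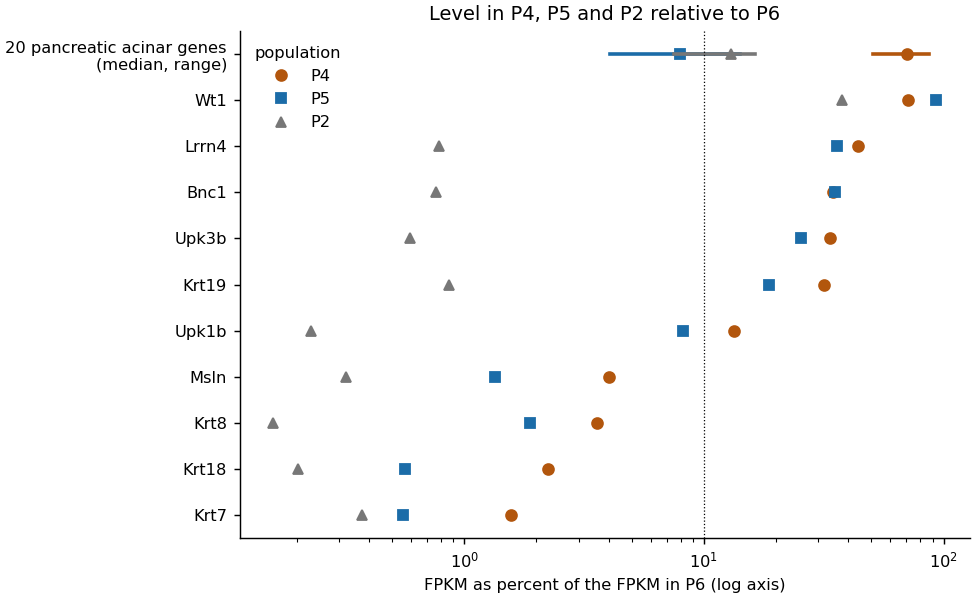
FPKM in P4, P5 and P2 as percent of the FPKM in P6 (log axis) for each of the 10 genes, 1 library per population, with the median and range over 20 pancreatic acinar genes in the top row and a dotted line at 10%. In P4, *Msln*, *Krt7*, *Krt8* and *Krt18* lay between 1.56% and 4.01%, *Upk1b* at 13.4%, the other genes between 31.8% and 70.9%, and the acinar genes had a median of 70.1%.

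Transcripts of pancreatic acinar cells, for which the gates used no marker, were present at different levels in the 6 libraries. All 20 listed acinar genes were highest in P6 (37.7% of all genes), and 0 of the 20 were at least 2 times higher there (6.45%). In P1, 1 of the 20 reached 1 FPKM, namely *Cela1*. Their summed FPKM was 2276 in P6 and 1565 in P4, followed by P2 (287), P5 (183), P3 (30.6) and P1 (5.47). *Amy2a5*, an amylase, was at 707 FPKM in P6, 433 in P4 and 0.782 in P1. P4 held 50.9% to 86.6% of the P6 level over these genes, and P4 was 4.96 to 13.4 times P5, a larger step than the 0.759 to 3.95 times of the 10 genes. P2 exceeded P3 for the acinar genes by a median of 11.7 times, the same direction as for *Msln*, *Krt7* and *Krt18* (for *Krt18* within counting error). The other 7 genes were higher in P3 than in P2 (*Krt8* within counting error). The pancreas also holds duct cells that use *Krt7*, *Krt8*, *Krt18* and *Krt19*. Among duct genes, *Onecut1* was listed at 0 in all libraries, *Cftr* was at 0.372 FPKM in P6 and at most 0.0106 elsewhere, *Sox9* was at 0.247 FPKM in P6 and up to 3.77 in P1, *Muc1* was at 0.588 to 1.11 FPKM, and *Tff2* was at 9.74 FPKM in P6 and 5.27 in P4. The part of pancreatic RNA in the levels of the 10 genes was not tested.

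Markers of other cell types also differed between P6 and the rest. Of 10 adipocyte genes, 6 were at least 2 times higher in P6 (6.45% of all genes), with *Cfd* at 114 FPKM against at most 0.337 elsewhere and *Adipoq*, which encodes adiponectin, at 14.7 FPKM against at most 0.785. *Fabp4*, the most abundant of that list, was at 179 FPKM in P6 and up to 349 in P5. The endothelial list had a summed level of 113 FPKM in P6 and 3.02 to 19.9 elsewhere. This came from *Kdr* (46.9 FPKM in P6) and *Esam* (62.0 FPKM), while *Pecam1*, which defines endothelium, was at most 0.992 FPKM and *Cdh5* at most 0.343. Of 12 genes of other epithelia, *Cldn3* alone reached 1 FPKM, with 1.29 to 7.42 FPKM and its highest value in P4. *Epcam* was at most 0.465 FPKM, and no gene of that list other than *Cldn3* exceeded 0.808. Of 10 listed fibroblast genes, 1 was highest in P6 (37.7% of all genes), and they had 2 kinds of profile. *Dpt* was at 1634 FPKM in P1 and 8.70 in P6, and *Lum* at 345 and 6.19, and *Pdgfra*, *Pi16* and *Col14a1* were also at most 6.83 FPKM in P6. *Col1a1* was at 1735 FPKM in P6 and 670 to 1618 elsewhere. *Col1a2*, *Col3a1*, *Dcn* and *Mfap5* were also high in P6, at 1153, 2926, 4350 and 144 FPKM. The part of these cell types in the levels of the 10 genes was not tested.

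Keratin filaments are built from pairs of a type I and a type II keratin, so the balance of both types was examined over all 52 keratin symbols. This sum was chosen after the values of the members were seen. Genes in the chromosome 11 cluster and *Krt18* were counted as type I (28 genes), the other chromosome 15 genes as type II (23 genes), and 1 symbol, *Krt85*, was left out because the annotation did not place it. Type I transcripts summed to 710 FPKM in P6, 208 in P4, 121 in P5, 15.6 in P1, 12.8 in P3 and 12.3 in P2. Type II transcripts summed to 153 FPKM in P6, 18.2 in P5, 17.6 in P4, 1.81 in P3, 1.61 in P1 and 1.47 in P2. The ratio of type I to type II was 4.64 in P6 and 6.66 to 11.8 in the other populations, with its highest value in P4.

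The type II keratin that accompanied *Krt19* differed between populations. In P6, *Krt7* and *Krt8* made up 92.6% of type II FPKM. In P4 and P5 they made up 19.1% and 8.49%, and the most abundant type II keratin was *Krt76*, known from oral and other stratified epithelium, at 12.5 FPKM in P4, 15.3 in P5, 9.20 in P6, 1.10 in P3, 0.276 in P2 and 0.195 in P1. Taking the 4 simple keratins alone, *Krt18* and *Krt19* together were 4.85 times *Krt7* and *Krt8* together in P6, 59.1 times in P4 and 75.4 times in P5. *Krt19* was 9.26 times *Krt18* in P6, 132 times in P4 and 307 times in P5. These are levels of mRNA per length, and protein was not measured.

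**Figure D3:**
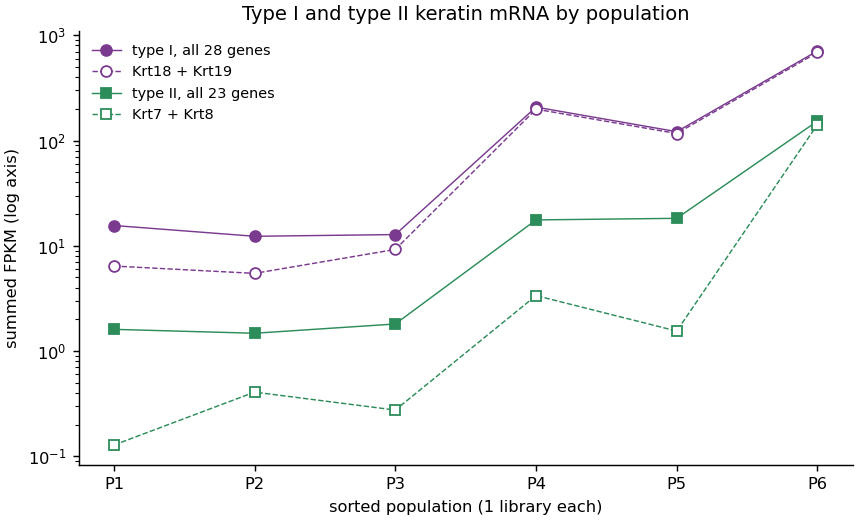
Summed FPKM (log axis) of type I and type II keratins in each population, 1 library each, over all genes of a type (filled symbols) and over the simple keratins alone (open symbols). In P6 the type II sum of 153 FPKM was nearly all *Krt7* and *Krt8* (142 FPKM), whereas in P4 and P5 these were 3.36 and 1.55 FPKM of 17.6 and 18.2 FPKM.

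Of the 48 other keratins, 9 reached 1 FPKM in some population and 22 were listed at 0 in all. *Krt23*, a type I keratin, was at 14.3 FPKM in P6, 2.56 in P4, 1.60 in P5, 1.10 in P1, 0.603 in P3 and 0.520 in P2. *Krt14* and *Krt15*, keratins of basal epithelial cells, met the rule for genes confined to P6, at 1.41 and 3.72 FPKM there and at most 0.0222 and 0.149 elsewhere. *Krt5*, the usual type II partner of *Krt14*, was listed at 0 in all libraries. *Krt10* was at 2.26 to 3.52 FPKM with no excess in P6, and *Krt1* reached 1.08 FPKM in P5. *Krt80* was at 0.165 to 1.67 FPKM, and *Krt25* and *Krt36* were at up to 2.02 and 1.94 FPKM, with at most 0.295 in P6.

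Other genes in use as mesothelial markers were compared with the 10. Of 13 listed, *Muc16* was not found under that symbol, and *Calb2*, which encodes calretinin, was listed at 0 in all libraries. An exact 0 can be a failed estimate in files of this kind, since *Col3a1* was listed at 0 in P2 and at 2100 to 3390 FPKM elsewhere. Of the 11 genes that reached 1 FPKM, 9 were highest in P6 (37.7% of all genes), 7 met the rule for sharing with P4 and P5 (3.77%), and 1 was confined to P6 (1.03%). The shared genes were *Gpm6a*, *Cldn15*, *Nkain4*, *Pkhd1l1*, *Crb2*, *Ezr* and *Dmkn*. *Gpm6a*, a membrane glycoprotein, was at 218 FPKM in P6, 98.9 in P4, 77.0 in P5 and at most 6.12 in P1 to P3. *Ezr*, which encodes the microvillus linker ezrin, was at 168, 165 and 169 FPKM in P6, P4 and P5 and at most 24.1 in P1 to P3. *Anxa8*, an annexin, was the confined gene, at 11.4 FPKM in P6 and at most 0.320 elsewhere.

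*Pdpn*, *Rspo1* and *Ildr2* were present in all 6 populations. *Pdpn*, which encodes podoplanin, was at 78.8 to 125 FPKM, a narrower range than that of *Wt1*. *Rspo1*, a Wnt signal enhancer, was at 231 FPKM in P6 and 42.8 to 93.9 elsewhere. *Ildr2* was highest in P5, at 114 FPKM, and lowest in P1, at 19.3.

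**Figure D4:**
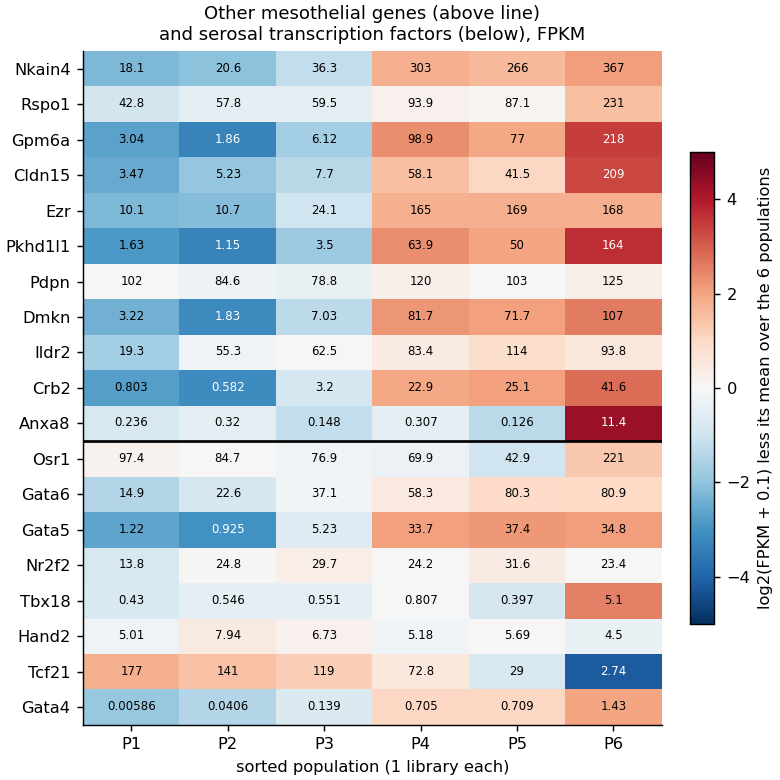
FPKM of 11 other mesothelial genes and 8 serosal transcription factors in the 6 populations, 1 library each, with the FPKM printed in each cell. Color gives log2(FPKM + 0.1) less the mean of the gene over the 6 populations, and *Anxa8* (11.4 FPKM in P6) and *Tcf21* (2.74 FPKM in P6) stand at opposite ends.

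Of 12 listed relatives of the identity genes, 2 reached 1 FPKM, and *Wt1os* was not found under that symbol. *Bnc2*, the paralog of *Bnc1*, was at 11.7 FPKM in P6, 5.10 in P4, 5.07 in P5 and 2.48 to 2.85 in P1 to P3. *Lrrn2*, a relative of *Lrrn4*, was lowest in P6, with 7.41 to 12.0 FPKM in P1 to P3 and 3.59 in P6. Among other uroplakins, *Upk1a* was at most 0.439 FPKM, *Upk3a* was at most 0.120 and listed at 0 in P1 to P4, and *Upk2* was listed at 0 in all libraries.

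For each of the 10 genes, the 3 genes with the nearest profile were taken from the 12904 that reached 1 FPKM, by the Euclidean distance of centred log2(FPKM + 0.1) over the 6 libraries. *Msln* was nearest to *Krt8* (distance 1.49), *Krt18* and *Spock3*. *Krt7* and *Krt18* were nearest to each other (0.857), and the next genes were *Egfl6* and *Spock3* for *Krt7* and *Spock3* and *Krt8* for *Krt18*. *Krt8* was nearest to *Spock3* (1.17), *Il17re* and *Cobl*. *Spock3*, a secreted proteoglycan, was at 54.7 FPKM in P6 and at most 1.65 elsewhere.

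*Lrrn4* was nearest to *Pkhd1l1* (0.193), *Gpm6a* and *Upk3b*, and *Upk3b* to *Pkhd1l1* (0.274), *Palmd* and *Lrrn4*. *Krt19* was nearest to A730046J19Rik (0.591), *Palmd* and *Lgals7*, and *Upk1b* to *Lgals7* (1.18), *Krt19* and *Palmd*. *Bnc1* was nearest to *Lrp2* (0.4004), which encodes the endocytic receptor megalin, *Podxl* and *Serpinb6b*. *Wt1* was nearest to *Ssh3* (0.0912), *Smim3* and *Tppp*, none of which is among the other 9. These distances describe 6 libraries and had no replicate check.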

How the data were processed

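RNA-seq of 6 sorted omental stromal populations (P1 to P6, 1 library each) was analyzed. RNA was prepared with the RNeasy Micro kit, libraries with the NEBNext Ultra kit, and single-end reads of 76 nt were sequenced. The authors deposited FPKM values per gene symbol. The submitters' processing notes name TopHat2 2.0.7, Cufflinks 2.1.1 and mm10. The annotation and any filter are not given in the sources used here.

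Each file held 23847 rows. Rows that repeated a symbol (495) were summed, and values were not rescaled. Low FPKM values of genes with a single GENCODE M21 transcript of at least 800 nt gave the depth, with 200 nt taken off each length. Only 49.3% to 56.1% of the values worth up to 10 reads fell within 0.05 of whole reads (chance gives 10%), so no count test was run. Exact conditional binomial intervals used the shortest coding transcript of at least 800 nt. Depth and fold rules were run on simulated data as a check of the code only, with raised genes set well above the fold of the rule.

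The named genes were the 10 members, genes of written lists and other keratins that reached 1 FPKM, and the 3 nearest profiles of each member. *Krt5* and genes under 1 FPKM were named after their values were seen. Members, lists and rules were chosen with earlier results of these data known. Alternatives covered scaling, repeated symbols, folds, minimum FPKM, pseudocount and transcript length. Computation used scipy 1.17.1, pandas 2.3.3 and numpy 2.4.6 in Python 3.11.15, and figures matplotlib 3.10.9.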

Additional observations from a re-analysis of the deposited data

How the results depend on the processing

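The counts of genes highest in P6 (10) and at least 2 times higher in P6 (9) did not change under any scaling. Libraries were scaled to an equal FPKM total, by median-of-ratios size factors, by *Gapdh* or by quantile normalization. Taking the highest row of a repeated symbol changed no ratio of these genes, so it could not change either count. Leaving out P4 or P2 could not change them either. It can only lower the highest other level, and for *Wt1*, the gene outside the count of 9, that level was in P5. Leaving out P4 or P2 was added after seeing the data, as was every alternative for the count of 9. The count confined to P6 stayed at 4 under each scaling, and it became 5, with *Upk1b*, when the fold was 5 or P4 was left out. The count shared with P4 and P5 was 3 at a fold of 5, without *Krt19*, and 5 at a fold of 20, with *Upk1b*.

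Of 210 ratios of single genes under alternatives, 144 stayed within the counting interval, 62 left it without changing direction and 4 changed direction. The 144 include 30 from the highest row of a repeated symbol, which changed no ratio and so could not leave the interval. A pseudocount of 0.1 also kept all 30 of its ratios within it. With *Gapdh*, 9 ratios stayed within the interval and 19 left it, against 19 to 22 that stayed with the other scalings. With a pseudocount of 1, 13 stayed and 17 left. The ratio of P4 to P5 for *Bnc1* became 1.01 with median-of-ratios size factors, 1.07 with *Gapdh* and 1.01 with quantile normalization. The ratio of P5 to P2 for *Krt7* became 0.990 with *Gapdh*. Division by *Gapdh* also lowered the ratio of the lower of P4 and P5 to the highest of P1 to P3 for the shared genes. It was then 9.91 for *Lrrn4*, 8.74 for *Upk3b*, 8.69 for *Krt19* and 7.13 for *Bnc1*. A pseudocount of 1 lowered the ratio of P6 to P4 for *Krt7* to 36.9, and with it 19 of 30 nearest genes were shared. With full transcript lengths the depth of P1 was 49.8 M reads. The median shift of genes by scaling reached 0.28 on the log2 scale in P1 and -0.33 in P5, both with *Gapdh*. No paired analysis was possible because there was 1 library per population, and for the same reason no replicate could be left out. Levels resting on 15 reads or fewer, as for *Krt8* and *Krt18* in P1 to P3, are limited by depth.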

Other observations

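Transcription factors of the serosal lining and its precursors had several profiles. Of 11 listed, 8 reached 1 FPKM, 3 were at least 2 times higher in P6 (6.45% of all genes), 2 (*Gata4* and *Gata5*) met the rule for sharing with P4 and P5 (3.77%) and 0 met the rule for genes confined to P6 (1.03%). *Gata5* was at 34.8 FPKM in P6, 37.4 in P5 and 33.7 in P4, and at most 5.23 in P1 to P3. *Gata6* had the same order of populations as *Wt1*, with 14.9, 22.6 and 37.1 FPKM in P1, P2 and P3, and 58.3, 80.3 and 80.9 FPKM in P4, P5 and P6. *Tcf21*, a factor of fibroblast precursors, had the opposite order, with 177, 141 and 119 FPKM in P1, P2 and P3, and 72.8, 29.0 and 2.74 FPKM in P4, P5 and P6. *Osr1* was at 221 FPKM in P6 and 42.9 to 97.4 elsewhere, and *Tbx18* at 5.10 FPKM in P6 and at most 0.807 elsewhere. *Gata4* was at 1.43 FPKM in P6 and at most 0.709 elsewhere. *Hand2* was at 4.50 FPKM in P6 and 5.01 to 7.94 elsewhere, and *Nr2f2* at 23.4 FPKM in P6 and 13.8 to 31.6 elsewhere.

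Genes whose products bind or accompany keratin filaments were examined as a list of 13, of which 4 were at least 2 times higher in P6 (6.45% of all genes). *Vim*, which encodes vimentin, was at 1021 to 1618 FPKM in all populations and 1061 in P6, so it exceeded the sum of all keratins in each. *Evpl* and *Ppl*, which encode the linkers envoplakin and periplakin, were at 10.9 and 113 FPKM in P6 and at most 1.11 and 47.9 elsewhere. *Pkp2*, a desmosomal plaque gene, was at 5.002 FPKM in P6 and at most 0.386 elsewhere, but *Dsp*, which encodes desmoplakin, was at 0.515 FPKM in P6 and 1.39 in P2. *Jup*, *Plec*, *Dst* and *Eppk1* were at 37.9, 59.7, 22.0 and 2.42 FPKM in P6, their highest values. *Des*, which encodes desmin, was lowest in P6 at 37.1 FPKM and highest in P3 at 198, and *Nes* was at 0.260 FPKM in P6 and 6.30 in P2.

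Of 8 listed mural genes, 3 were at least 2 times higher in P6 (6.45% of all genes), namely *Acta2*, *Mcam* and *Cspg4*. *Acta2* was at 35.0 FPKM in P6 and at most 10.4 elsewhere. The others were highest outside P6. *Myh11* and *Kcnj8* were highest in P5, at 91.8 and 29.9 FPKM, and *Abcc9*, *Notch3* and *Rgs5* in P3, at 29.8, 5.84 and 0.553 FPKM. Of 10 listed blood cell genes, 9 were found under their symbol and 5 reached 1 FPKM. Of these, *Csf1r* and *Cd68* were at least 2 times higher in P6 (6.45% of all genes). *Csf1r* was at 11.6 FPKM in P6 and at most 1.66 elsewhere, and *Lyz2* was at 7.74 to 26.6 FPKM with its highest value in P6. The B cell genes *Cd79a* and *Ms4a1* were highest in P2, at 3.21 and 1.37 FPKM, against 1.10 and 0.888 FPKM in P6.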
